A study of Mus musculus with 6 samples.

Results

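The genes described here are 9 genes of the complement system: C1qa, C1qb, C1qc, C1ra, C1s1, C4b, C3, Serping1 and C3ar1. They were chosen by name, as rows of the deposited tables whose gene symbol is on that list. All 9 were found as rows of their own among 46951 rows of the tumor table, and all 9 among 46952 rows of the table of cultured cells. RNA was sequenced from brain tumors and from glioma-initiating cells (GICs), cultured tumor cells that can seed a glioma in a new host. Mouse GICs of a single line, written ms7080 on the tumor labels and 7080X1 on the culture labels, had been placed in the brains of C57BL/6 mice, the tumors were taken at the onset of symptoms, and new GIC cultures were started from them. The 3 tumor groups were NMN-before (old mice with NMN given before the tumor), old (untreated) and young (untreated), and the 3 GIC groups came under the same names, with the untreated old culture titled old NT. NMN is not spelled out in the labels and usually stands for nicotinamide mononucleotide, a precursor of NAD+. The sources used here do not give the genotype of the line, its number of clones, the ages, the dose and route of NMN, or how many mice went into each library. Each group was 1 library, so every difference below sets 2 libraries side by side with no replicate check, no standard deviation and no p-value.

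Complement is a cascade of secreted proteins that tags cells and debris for removal. C1q binds a surface, the proteases C1r and C1s attached to it cut C4 and C2, and the enzyme formed in this way cuts C3, the component on which all routes of activation meet. In the brain, C1q is made mainly by microglia and other macrophages, while astrocytes are a known source of C4 and C3.

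Values are FPKM as deposited, that is, fragments scaled by the length of the transcript and by the size of the library. Being scaled by length, FPKM values can be set side by side between genes. As the tumor and GIC tables may have been normalized apart, differences were taken within a table only. A difference is log2(FPKM + 1) of the first library minus that of the second, which understates the change of low genes, and a row counted as measured where at least 1 library of its table reached 1 FPKM. A difference of 1 or more in size is called 2-fold, as a rule of size. Ratios are of FPKM without the added 1, and their 95% intervals come from the fragments behind each value and cover counting error only. The fragments were recovered from the steps between low FPKM values, which gave an effective depth of 11.33 to 18.79 M fragments (M for mega) in the tumors and 9.70 to 12.69 M in the GICs.

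The RefSeq promoter table (GRCm38.p6) held 7 windows for 6 of the genes, each of 300 bases from 250 before to 50 after the start site. The 250 bases before the start are shown for 4 genes on which the results turn: C1qb for the C1q chains, C3 and C3ar1, which were highest in the old tumor, and C1s1, which among the GICs was lowest in the NMN-before culture. They lie on the minus strand at chr4:136886201-136886450 for C1qb, chr17:57228137-57228386 for C3, chr6:122856158-122856407 for C3ar1 and chr6:124542360-124542609 for C1s1, and are written 5′ to 3′ along the gene. Capitals mark every match, on either strand, to one of the 5 motifs searched: the PU.1 core GAGGAA, the C/EBP motif TTGCNNAA, the STAT motif TTCNNNGAA, the core GAAANNGAA of the interferon response element and the AP-1 motif TGANTCA.
C1qb: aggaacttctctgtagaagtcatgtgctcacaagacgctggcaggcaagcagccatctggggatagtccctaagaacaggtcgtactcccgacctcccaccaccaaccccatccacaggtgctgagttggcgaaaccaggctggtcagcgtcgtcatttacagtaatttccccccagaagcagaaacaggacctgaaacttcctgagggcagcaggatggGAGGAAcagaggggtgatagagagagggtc
C3: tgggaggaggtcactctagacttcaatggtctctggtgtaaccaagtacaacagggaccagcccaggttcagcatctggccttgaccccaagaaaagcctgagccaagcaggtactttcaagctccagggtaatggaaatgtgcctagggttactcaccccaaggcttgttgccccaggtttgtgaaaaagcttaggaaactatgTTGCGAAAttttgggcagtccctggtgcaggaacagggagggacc
C3ar1: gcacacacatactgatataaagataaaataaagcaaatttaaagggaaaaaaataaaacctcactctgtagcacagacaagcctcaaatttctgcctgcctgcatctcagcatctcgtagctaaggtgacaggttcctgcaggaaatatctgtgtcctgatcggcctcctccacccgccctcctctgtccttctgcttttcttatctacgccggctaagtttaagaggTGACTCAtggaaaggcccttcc
C1s1: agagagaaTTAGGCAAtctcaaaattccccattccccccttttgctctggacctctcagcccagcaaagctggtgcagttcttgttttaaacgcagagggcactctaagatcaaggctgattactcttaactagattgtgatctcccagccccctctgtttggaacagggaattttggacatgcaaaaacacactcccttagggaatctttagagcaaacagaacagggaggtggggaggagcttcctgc

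In the C1qb window GAGGAA, the core bound by the macrophage factor PU.1, began 30 bases before the start site. In the C3 window TTGCNNAA began 45 bases before it, in the C3ar1 window TGANTCA began 22 bases before it, and in the C1s1 window TTGCNNAA lay on the opposite strand from 242 bases before it. The C1qc window, most of which is the gene's own exon in GENCODE and is not shown, held GAGGAA on the opposite strand 193 bases before its start. GAGGAA was present in 3 of the 7 windows and in 28.3% of 32817 mouse promoter windows of the same length. TTGCNNAA was present in 3 of the 7 and in 10.8% of all windows, TTCNNNGAA in 1 and in 8.29%, TGANTCA in 1 and in 7.81%, and GAAANNGAA in 0 and in 8.55%. All matches in the C1ra window lay after its start site, and most of that window falls within the gene in GENCODE. The C1s1 windows among the 7 overlap each other, so the 7 are not all separate promoters. The motifs were chosen with these sequences visible, and a match is a description of letters, not of a bound site.

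In the tumors the C1q chains were among the more abundant RNAs, C4b was close behind them, and the other 5 genes were low. Set against the young tumor, the old tumor had more RNA of C1qa, C1qb, C1qc, C4b, C3 and C3ar1, by ratios of 1.20 to 1.86 whose counting intervals lay above 1. The NMN-before tumor had less C4b and C3 than the old tumor, with ratios of 0.681 and 0.659. Its C1qa and C1qc were lower by less, with ratios of 0.921 and 0.840 whose counting intervals lay below 1. The C1q chains, C3 and C3ar1 of the NMN-before tumor remained above the young tumor, while its C4b was below the young tumor. None of the 9 genes differed by 2-fold between any pair of tumors. In the GICs the C1q chains and C3ar1 were at 0 to 3 fragments, and C4b was low in the old culture, with a ratio of 4.11 between the NMN-before and old GICs (2.46 when its near copy C4a is added).

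**Figure D1:**
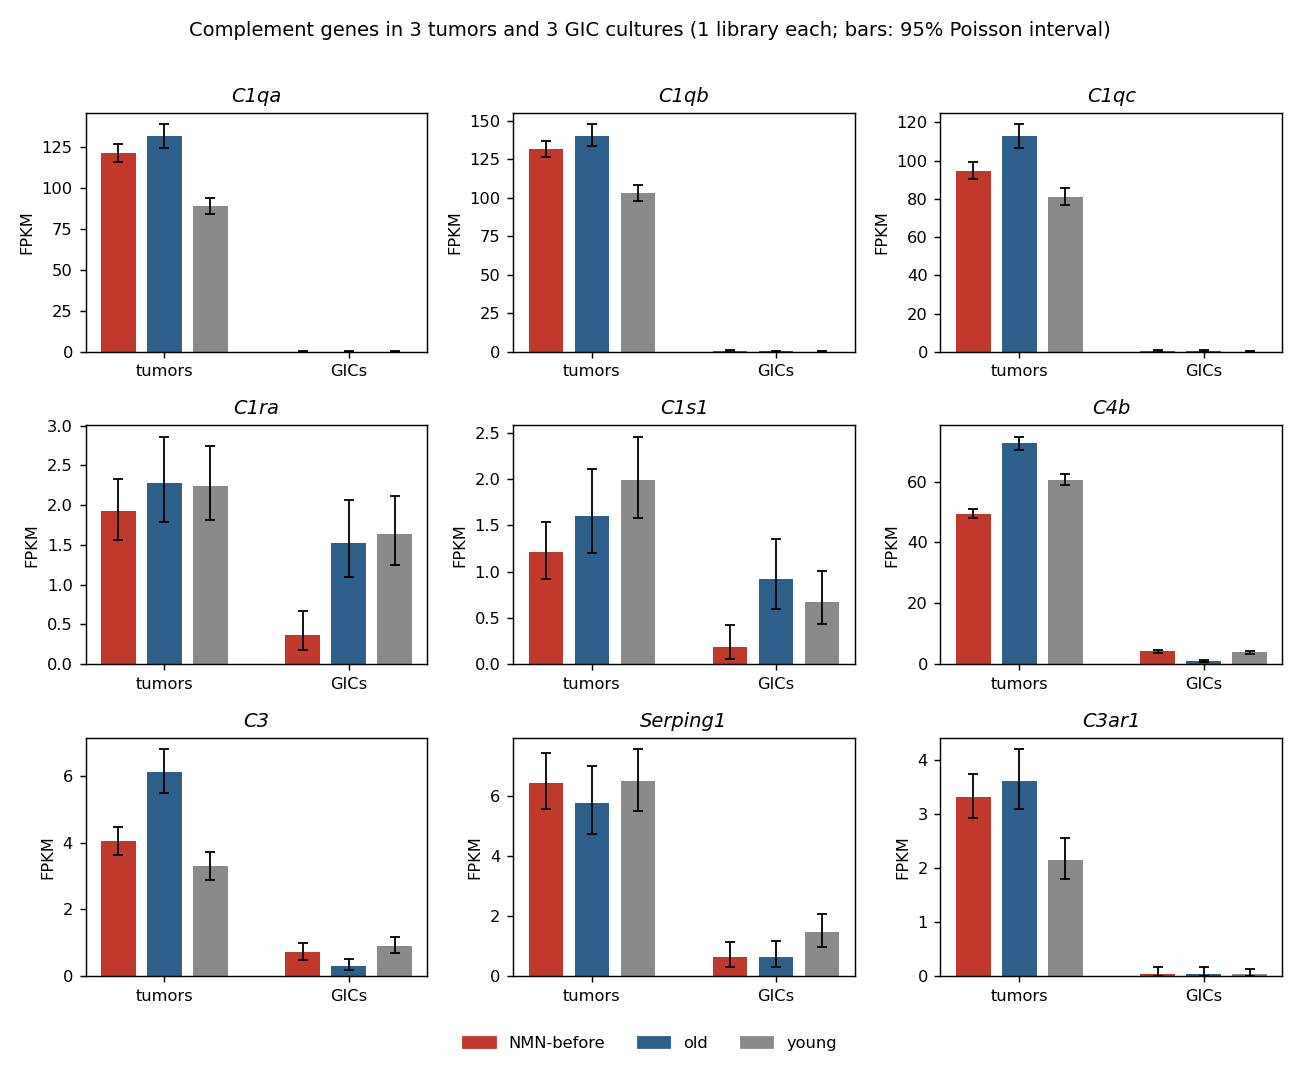
FPKM of each of the 9 genes in the NMN-before, old and young tumors (left 3 bars of each panel) and in the NMN-before, old and young GICs (right 3 bars), 1 library per bar, with 95% Poisson intervals for counting error as error bars. The C1q chains stood at 81.0 to 140.3 FPKM in tumors and at 0 to 0.321 FPKM in GICs, whereas C1ra, C1s1, C4b, C3 and Serping1 were also present in GICs.

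The 3 C1q chains are encoded side by side on chromosome 4 (GRCm38, minus strand): C1qb (ENSMUSG00000036905.8) at 136880129 to 136886187, C1qc (ENSMUSG00000036896.5) at 136889804 to 136893065 and C1qa (ENSMUSG00000036887.5) at 136895917 to 136898803. C1qa, the A chain, was at 121.2 FPKM in the NMN-before tumor, 131.6 FPKM in the old tumor and 88.8 FPKM in the young tumor. C1qb, the B chain, was at 131.4 FPKM in the NMN-before tumor, 140.3 FPKM in the old tumor and 102.9 FPKM in the young tumor. C1qc, the C chain, was at 94.7 FPKM in the NMN-before tumor, 112.8 FPKM in the old tumor and 81.0 FPKM in the young tumor. All 3 chains had the same order, with the old tumor highest and the young tumor lowest.

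Old minus young log2 differences were 0.56 for C1qa, 0.44 for C1qb and 0.47 for C1qc. The FPKM ratio of C1qa, old over young, was 1.48 (1.37 to 1.60). That of C1qb was 1.36 (1.27 to 1.47) and that of C1qc was 1.39 (1.29 to 1.504). Each rested on at least 1194 fragments per library, so counting error was small, but how much 2 tumors of the same group would differ is not known from these data. In bulk tissue, fewer cells of a type and less RNA per cell cannot be told apart.

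The NMN-before tumor lay between the other 2 tumors for each chain. Against the old tumor its ratio was 0.921 (0.859 to 0.988) for C1qa, 0.937 (0.878 to 1.001) for C1qb and 0.840 (0.782 to 0.901) for C1qc, and the interval of C1qb reached past 1. Against the young tumor its ratio was 1.37 (1.27 to 1.47) for C1qa, 1.28 (1.20 to 1.36) for C1qb and 1.17 (1.09 to 1.26) for C1qc. These 3 comparisons share libraries, so they are not independent of each other. The proportions of the chains were close: C1qb over C1qa was 1.08 in the NMN-before tumor, 1.07 in the old tumor and 1.16 in the young tumor. C1qc over C1qa spread more, at 0.781 in the NMN-before tumor, 0.857 in the old tumor and 0.913 in the young tumor.

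The nearest measured genes on chromosome 4 did not show the pattern of the C1q chains. Old minus young log2 differences were -0.03 for Luzp1, -0.19 for Kdm1a and -0.07 for Ephb2 on one side of the cluster, and -0.13 for Zbtb40, -0.28 for Wnt4 and 0.09 for Cdc42 on the other. All 6 lay below the 0.44 to 0.56 of the C1q chains.

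Like the C1q chains, the microglia markers were higher in the old than in the young tumor. All 12 of the 12 markers looked up were measured in tumors, none was at 0 in any tumor, and their summed level was 243 FPKM in the NMN-before tumor, 277 FPKM in the old tumor and 180 FPKM in the young tumor. Between the old and the young tumor 12 of 12 were higher, beside 48.3% of all measured rows. The median log2 difference of the 12 was 0.69, above the 0.44 to 0.56 of the C1q chains. In the NMN-before tumor 4 were higher and 8 lower than in the old tumor (median -0.15), beside 48.2% of all rows lower. All 12 were higher than in the young tumor (median 0.60), beside 48.8% of all rows. Tmem119 differed from the C1q chains, with an NMN-before over old ratio of 1.53 (1.31 to 1.78). Aif1 and Sall1 were nearly level between the NMN-before and young tumors, each with a ratio of 1.02. Sall1, among the 12, was also at 14.5 to 23.2 FPKM in the GICs, so it did not mark microglia alone. Monocyte and macrophage markers, of which 7 of 10 were measured, summed to 218 FPKM in the NMN-before tumor, 351 FPKM in the old tumor and 178 FPKM in the young tumor, most of it from Lyz2. The part of these cells in the complement values was not tested.

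**Figure D2:**
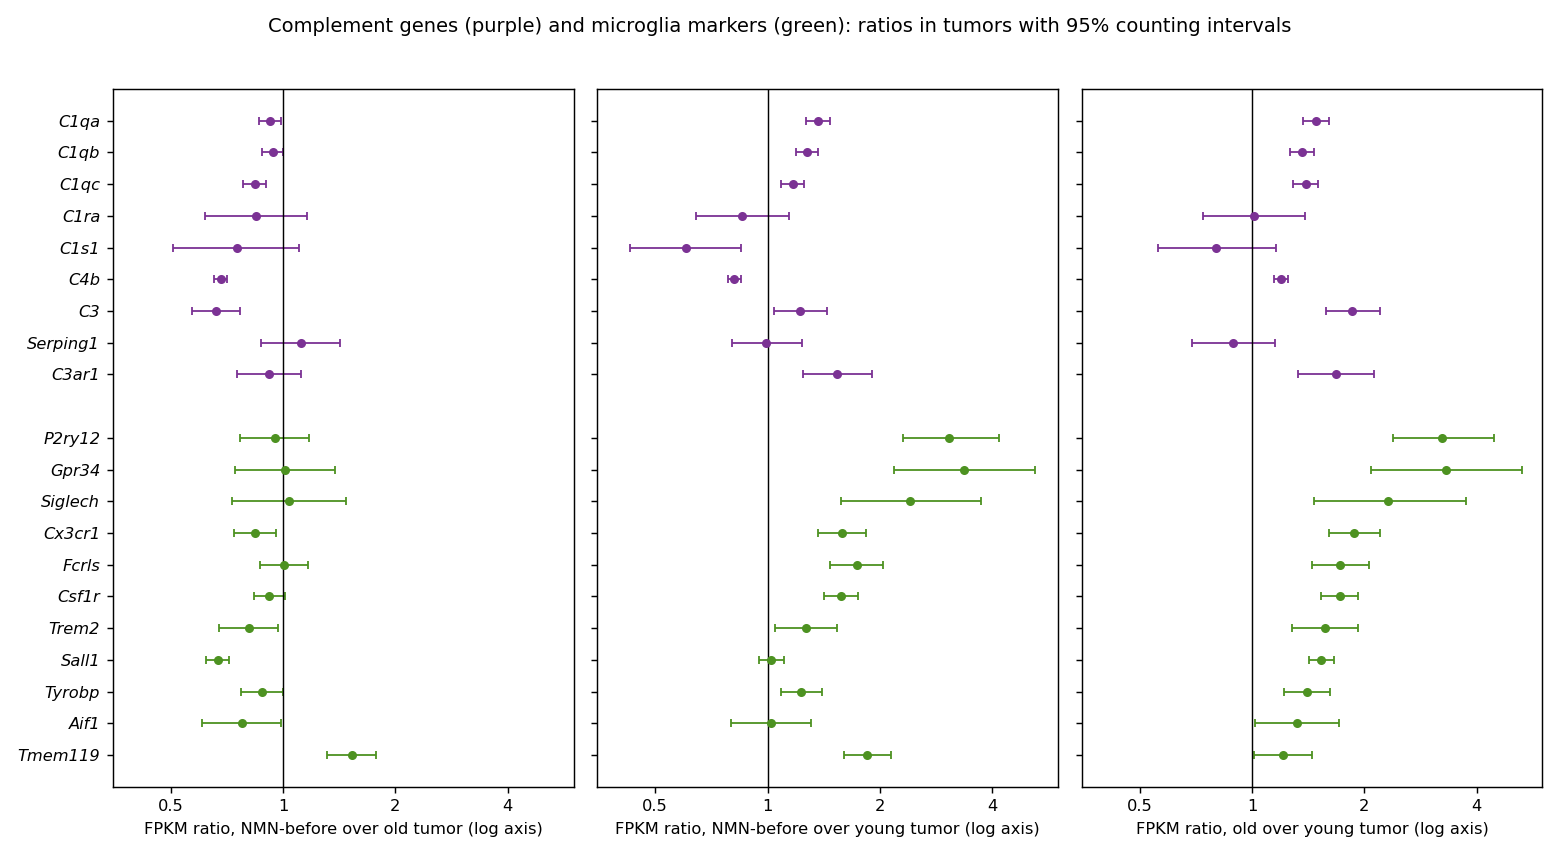
FPKM ratios between tumors on a log axis for the 9 complement genes (purple) and 11 of the 12 microglia markers (green), in 3 panels: NMN-before over old, NMN-before over young, and old over young. Points are ratios of 2 libraries and bars are 95% counting intervals; in the old over young panel all microglia markers shown and the C1q chains, C4b, C3 and C3ar1 lie above 1, and in the NMN-before over old panel C4b and C3 lie at 0.681 and 0.659.

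Set against single myeloid genes, the C1q total did not keep 1 direction. The sum of the 3 chains was 347 FPKM in the NMN-before tumor, 385 FPKM in the old tumor and 273 FPKM in the young tumor. Divided by Tyrobp, an adaptor of myeloid receptors, it was 4.45 in the NMN-before tumor, 4.32 in the old tumor and 4.30 in the young tumor. Divided by Csf1r, the receptor that keeps microglia alive, it was 22.6 in the NMN-before tumor, 23.0 in the old tumor and 28.0 in the young tumor. Thus the C1q total followed Tyrobp closely, while per unit of Csf1r it was lower in the old and NMN-before tumors than in the young tumor. The same held per unit of P2ry12, a purine receptor of microglia, at 62.4 in the NMN-before tumor, 65.6 in the old tumor and 150 in the young tumor. Per unit of Aif1 the order was the opposite, at 28.9 in the NMN-before tumor, 24.7 in the old tumor and 23.2 in the young tumor.

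**Figure D3:**
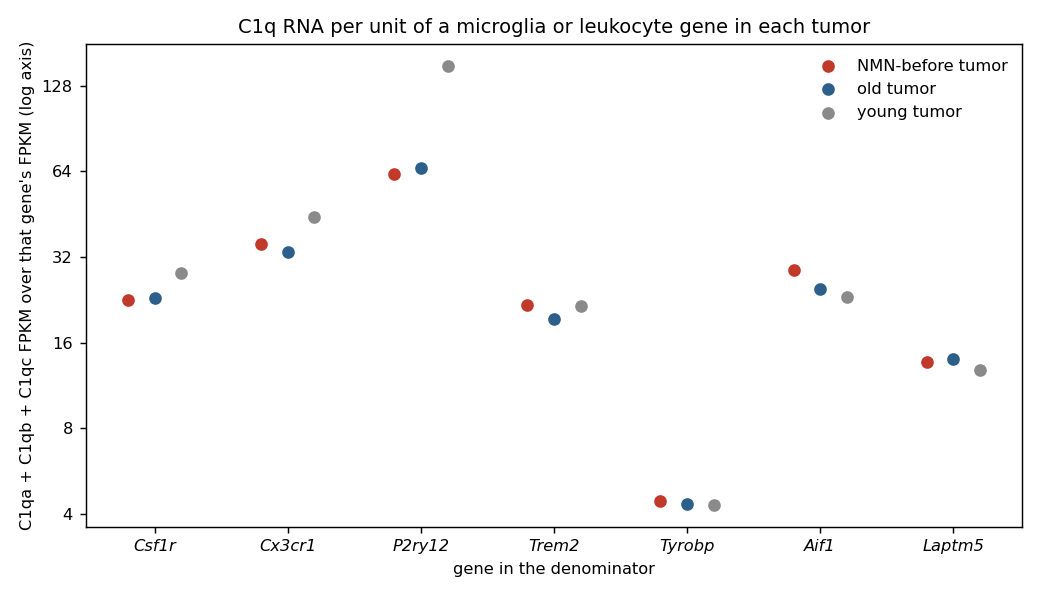
Sum of C1qa, C1qb and C1qc FPKM divided by the FPKM of each of 7 microglia or leukocyte genes (x axis), on a log axis, in the NMN-before, old and young tumor, 1 point per library. The 3 points nearly coincide for Tyrobp (4.30 to 4.45), and the young tumor is highest for P2ry12 (150), Cx3cr1 (44.2) and Csf1r (28.0).

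C1ra and C1s1 encode the proteases that ride on C1q, and they are neighbors on chromosome 6: C1ra (ENSMUSG00000055172.10) at 124512405 to 124523443 on the plus strand and C1s1 (ENSMUSG00000038521.17) at 124530345 to 124542359 on the minus strand. C1ra was at 1.92 FPKM in the NMN-before tumor, 2.28 FPKM in the old tumor and 2.24 FPKM in the young tumor. C1s1 was at 1.21 FPKM in the NMN-before tumor, 1.60 FPKM in the old tumor and 1.997 FPKM in the young tumor. C1ra was nearly level, and C1s1 was highest in the young tumor, unlike the C1q chains. Interferon-stimulated genes, 13 of 13 measured with none at 0, had the same order as C1s1, with summed levels of 298 FPKM in the NMN-before tumor, 405 FPKM in the old tumor and 522 FPKM in the young tumor. In the NMN-before tumor 13 of the 13 were lower than in the young tumor (median log2 difference -0.82), beside 50.9% of all measured rows. In the old tumor 10 of the 13 were lower than in the young tumor (median -0.39), beside 51.5% of all rows. The part of these genes in the tumor values of C1ra and C1s1 was not tested. The old over young ratio of C1ra was 1.01 (0.737 to 1.39) and that of C1s1 was 0.802 (0.560 to 1.16), both with intervals that include 1. The NMN-before over young ratio of C1s1, 0.605 (0.429 to 0.848), was the only tumor ratio of these 2 genes whose interval excluded 1, on 63 fragments in the NMN-before tumor and 84 in the young tumor.

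In the GICs both proteases were lowest in the NMN-before culture. C1ra was at 0.360 FPKM in the NMN-before GICs, 1.53 FPKM in the old GICs and 1.64 FPKM in the young GICs, on 10, 42 and 59 fragments. C1s1 was at 0.185 FPKM in the NMN-before GICs, 0.920 FPKM in the old GICs and 0.673 FPKM in the young GICs, on 5, 25 and 24 fragments. Both were low in the NMN-before GICs and close to each other in the old and young GICs. The NMN-before over old ratio was 0.236 (0.106 to 0.478) for C1ra and 0.201 (0.0593 to 0.527) for C1s1. The NMN-before over young ratio was 0.220 (0.1003 to 0.433) for C1ra and 0.275 (0.0805 to 0.723) for C1s1. On the scale with 1 added, the C1ra differences were -0.89 and -0.96, just inside 2-fold, and C1s1 stayed below 1 FPKM in every GIC library. The old over young ratio was 0.932 (0.612 to 1.41) for C1ra and 1.37 (0.747 to 2.49) for C1s1, and both intervals include 1. Clstn3, the nearest measured gene beside C1ra, was at 1.06 FPKM in the NMN-before, 2.65 FPKM in the old and 2.83 FPKM in the young GICs. Its NMN-before minus old log2 difference was -0.82. The other neighbors had -0.01 (Pex5), 0.03 (Necap1), 0.08 (Lpcat3), 0.15 (Emg1) and 0.16 (the row of Gm23547 and Phb2). A link between Clstn3 and C1ra was not tested.

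The copies C1rb and C1s2 lie close by on chromosome 6. Of 150-base windows of the longest transcript, 26.3% of C1ra were also found in C1rb and 2.86% of C1s1 in C1s2. Of 75-base windows, 40.1% of C1ra and 14.7% of C1s1 were. Some fragments of C1ra and C1s1 could thus be divided between copies. C1rb was listed at 0 in all 3 tumors and in the NMN-before and old GICs, and at 0.069 FPKM in the young GICs. C1s2 was at 0.158 FPKM in the NMN-before GICs, 0 in the old GICs and 0.0626 FPKM in the young GICs. In the same libraries C1s1 was at 0.185, 0.920 and 0.673 FPKM, so in the NMN-before GICs the C1s2 value was close to that of C1s1. How fragments were divided between these copies was not tested. Interferon-stimulated genes differed between the same GIC libraries: 11 of 13 were measured, with a summed level of 60.8 FPKM in the NMN-before GICs, 155 FPKM in the old GICs and 153 FPKM in the young GICs, and Oasl2 and Ifi44 were at 0 in the NMN-before GICs. The median log2 difference was -1.03 between the NMN-before and old GICs, and 9 of the 11 were lower. Over all measured GIC rows, the quartiles of that difference were -0.27 and 0.29. The part of the interferon-stimulated genes in the values of C1ra and C1s1 was not tested.

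C4b encodes C4, the substrate of C1s, and lies on chromosome 17 at 34728380 to 34743882, minus strand (ENSMUSG00000073418.4). It was at 49.4 FPKM in the NMN-before tumor, 72.6 FPKM in the old tumor and 60.6 FPKM in the young tumor. Unlike the C1q chains, C4b was lowest in the NMN-before tumor and not in the young tumor. The NMN-before over old ratio was 0.681 (0.653 to 0.710), the NMN-before over young ratio was 0.815 (0.783 to 0.849) and the old over young ratio was 1.20 (1.15 to 1.25), with log2 differences of -0.55, -0.29 and 0.26. At 4301 or more fragments per tumor, these were the narrowest intervals of the 9 genes. Of all measured tumor rows, 5.1% had a lower NMN-before minus old difference than C4b.

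Astrocyte markers were followed beside C4b. All 8 of 8 were measured in tumors, none was at 0, and they summed to 2606 FPKM in the NMN-before tumor, 2927 FPKM in the old tumor and 3289 FPKM in the young tumor, most of it from Gfap. Their median log2 difference was -0.36 between the NMN-before and the old tumor, against -0.55 for C4b. Of the 8 markers 7 were lower, beside 48.2% of all measured rows. Per unit of Aldoc, an aldolase of astrocytes, C4b was 0.212 in the NMN-before tumor, 0.238 in the old tumor and 0.231 in the young tumor. Per unit of Gfap, the intermediate filament of astrocytes, it was 0.0236 in the NMN-before tumor, 0.0324 in the old tumor and 0.0225 in the young tumor, so the old tumor was highest by both, and whether the NMN-before tumor stood above or below the young tumor depended on the marker. In the GICs Aldoc was at 170 FPKM (NMN-before), 40.8 FPKM (old) and 37.8 FPKM (young), and Gfap at 6.41, 3.21 and 11.4 FPKM. Aldoc thus did not mark astrocytes alone. The part of astrocyte content in the C4b values was not tested. C4a is a near copy that shares 8.26% of the 150-base windows of C4b and 23.5% of its 75-base windows. It was at 0.963 FPKM in the NMN-before tumor, 0.563 FPKM in the old tumor and 0.523 FPKM in the young tumor. C4a thus made 0.77% to 1.91% of the pair's summed FPKM in tumors.

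In the GICs C4b was at 4.13 FPKM in the NMN-before culture, 1.005 FPKM in the old culture and 3.81 FPKM in the young culture, on 211, 51 and 253 fragments. The old GICs alone were low, the reverse of the tumors, where the old tumor was highest. The NMN-before over old ratio was 4.11 (3.02 to 5.70), with a log2 difference of 1.36, and the old over young ratio was 0.264 (0.191 to 0.358), with a log2 difference of -1.26. The NMN-before over young ratio was 1.08 (0.900 to 1.31), an interval that includes 1. The near copy C4a was at 0.640 FPKM in the NMN-before GICs, 0.932 FPKM in the old GICs and 0.738 FPKM in the young GICs, so it made 48.1% of the pair's summed FPKM in the old culture. Summed, the pair was at 4.77 FPKM in the NMN-before GICs, 1.94 FPKM in the old GICs and 4.55 FPKM in the young GICs. For the sum, the NMN-before over old ratio was 2.46 and the old over young ratio was 0.426. With log2 differences of 0.97 and -0.92 the sum did not pass 2-fold in either comparison, whereas C4b alone did. How fragments were divided between the copies was not tested. C4b was the only member past 2-fold in the GICs. Of the 3 members measured in GICs (C1ra, C4b and Serping1), 1 passed 2-fold between the NMN-before and old GICs, beside 5.57% of all 12809 measured rows. Serping1 was measured only through the young GICs, where it is high. Between the old and young GICs 1 of the 3 passed, beside 2.8% of all rows, and between the NMN-before and young GICs 0 of the 3 passed, beside 6.62% of all rows. Astrocyte markers, 7 of 8 measured, summed to 394 FPKM in the NMN-before GICs, 172 FPKM in the old GICs and 154 FPKM in the young GICs, with Aqp4 at 0 in the NMN-before GICs; their part in the C4b values was not tested.

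C3, the central component of the cascade, lies on chromosome 17 at 57203970 to 57228136, minus strand (ENSMUSG00000024164.15). It was at 4.03 FPKM in the NMN-before tumor, 6.12 FPKM in the old tumor and 3.29 FPKM in the young tumor. The old tumor stood apart, and the NMN-before tumor was nearer to the young tumor. The old over young ratio was 1.86 (1.58 to 2.199), the highest of the 9 genes, with a log2 difference of 0.73. Of all measured tumor rows, 3.3% had a higher old minus young difference. The NMN-before over old ratio was 0.659 (0.569 to 0.765) and the NMN-before over young ratio was 1.22 (1.04 to 1.45). On one side of C3, old minus young log2 differences were -0.13 for Tubb4a, -0.58 for Tnfsf9 and -0.22 for Gm11110. On the other they were 0.15 for Gpr108, 0.01 for Trip10 and 0.38 for Vav1. Vav1, at 3.23 FPKM in the NMN-before, 4.49 FPKM in the old and 3.23 FPKM in the young tumor, was highest in the old tumor, as was Gpr108.

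Per unit of Csf1r, C3 was 0.263 in the NMN-before tumor, 0.366 in the old tumor and 0.339 in the young tumor. Of C4b, C3 made 0.0816 in the NMN-before tumor, 0.0843 in the old tumor and 0.0543 in the young tumor, so per unit of C4b the NMN-before and old tumors were close. Choroid plexus markers, 3 of 4 measured, summed to 11.5 FPKM in the NMN-before tumor, 154 FPKM in the old tumor and 26.8 FPKM in the young tumor, with none at 0. Most of that was Ttr, the transport protein made in quantity by the choroid plexus, at 9.01 FPKM in the NMN-before tumor, 151 FPKM in the old tumor and 24.0 FPKM in the young tumor. Aqp1, a water channel of the choroid plexus, had another order, at 1.87 FPKM in the NMN-before tumor, 0.606 FPKM in the old tumor and 1.71 FPKM in the young tumor, lowest in the old tumor. The part of this tissue in the higher C3 of the old tumor was not tested. Alb and Serpina1a, defining genes of the liver, which supplies most complement of the blood, were listed at 0 in all 3 tumors. Apoa1, another liver gene looked up, was at 0.120 FPKM in the NMN-before, 0 in the old and 0.374 FPKM in the young tumor. Ttr, described above, was on the same liver list.

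In the GICs C3 was at 0.722 FPKM in the NMN-before culture, 0.317 FPKM in the old culture and 0.892 FPKM in the young culture, on 35, 15 and 57 fragments. As for C4b, the old GICs were low and the old tumor was high. The NMN-before over old ratio was 2.28 (1.23 to 4.57) and the old over young ratio was 0.355 (0.181 to 0.616). The NMN-before over young ratio was 0.810 (0.509 to 1.24), an interval that includes 1. C3 stayed below 1 FPKM in every GIC library and so was not among the measured members.

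**Figure D4:**
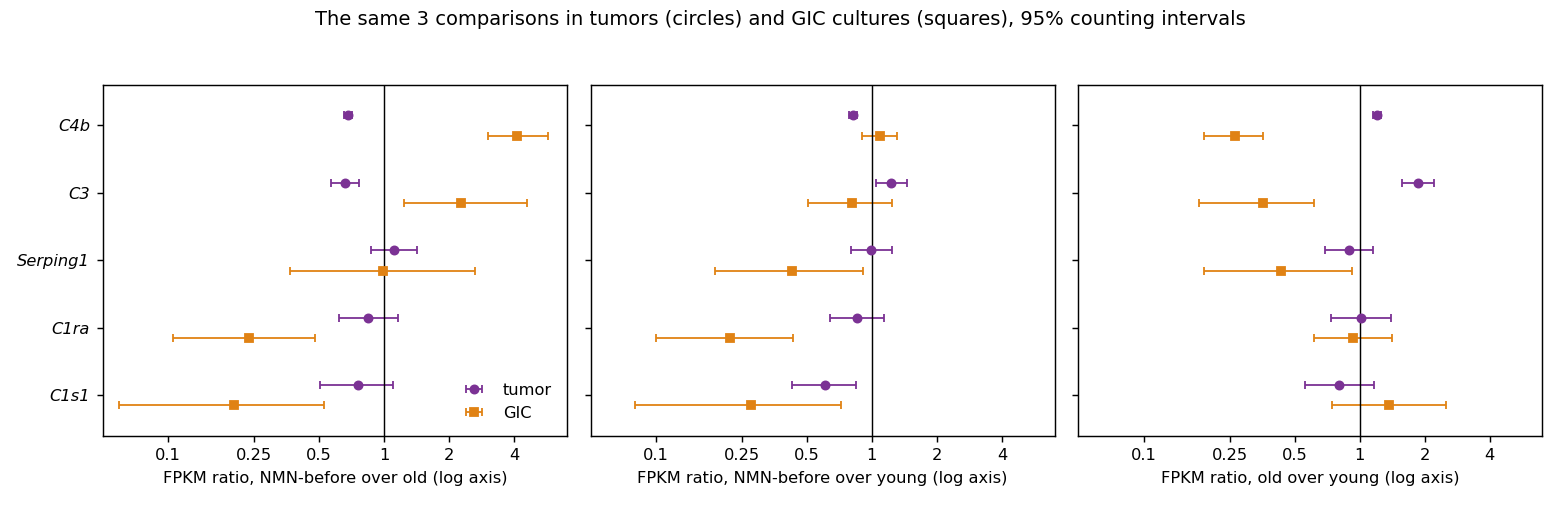
FPKM ratios of C4b, C3, Serping1, C1ra and C1s1 in tumors (circles) and GICs (squares) on a log axis, in 3 panels: NMN-before over old, NMN-before over young, and old over young, with 95% counting intervals of 1 library against 1. C4b and C3 lie on opposite sides of 1 in tumors and GICs for NMN-before over old (C4b 0.681 in tumors and 4.11 in GICs) and for old over young (C4b 1.20 in tumors and 0.264 in GICs).

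Serping1 encodes the C1 inhibitor, which removes C1r and C1s from activated C1, and lies on chromosome 2 at 84765387 to 84775444, minus strand (ENSMUSG00000023224.12). It was at 6.42 FPKM in the NMN-before tumor, 5.76 FPKM in the old tumor and 6.48 FPKM in the young tumor. The 3 tumors were close, and the old tumor was lowest. The NMN-before over old ratio was 1.11 (0.874 to 1.42), the NMN-before over young ratio was 0.990 (0.803 to 1.24) and the old over young ratio was 0.889 (0.692 to 1.15). All 3 intervals include 1, and they do not show that the tumors were equal. In the GICs Serping1 was at 0.627 FPKM in the NMN-before culture, 0.635 FPKM in the old culture and 1.46 FPKM in the young culture, on 10, 10 and 30 fragments. It was measured only through the young GICs, where it is high. The young GICs were higher, with an NMN-before over young ratio of 0.429 (0.188 to 0.905) and an old over young ratio of 0.435 (0.190 to 0.917), while the NMN-before over old ratio was 0.987 (0.368 to 2.64). Of the fibroblast markers 6 of 6 were measured in tumors, with none at 0. They summed to 134 FPKM in the NMN-before tumor, 96.7 FPKM in the old tumor and 123 FPKM in the young tumor. The old tumor was thus below the other 2, as for Serping1. The row of Pdgfra, also a marker of oligodendrocyte precursors, made 70.1, 70.2 and 72.6 FPKM of these sums. The other fibroblast markers were each lowest in the old tumor. The part of fibroblasts in the Serping1 values was not tested.

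C3ar1 encodes the receptor of C3a, the fragment released when C3 is cut, and lies on chromosome 6 at 122847138 to 122856161, minus strand (ENSMUSG00000040552.8). It was at 3.31 FPKM in the NMN-before tumor, 3.61 FPKM in the old tumor and 2.15 FPKM in the young tumor. The young tumor was lowest, as for the C1q chains. The old over young ratio was 1.68 (1.33 to 2.12), the NMN-before over young ratio was 1.54 (1.24 to 1.91) and the NMN-before over old ratio was 0.916 (0.752 to 1.12), which includes 1. Per unit of Csf1r, C3ar1 was 0.215 in the NMN-before tumor, 0.216 in the old tumor and 0.221 in the young tumor. Per unit of P2ry12, a receptor of resting microglia, it was 0.594 in the NMN-before tumor, 0.616 in the old tumor and 1.18 in the young tumor. Per unit of Tyrobp, a signaling adaptor of myeloid cells, it was 0.0423 in the NMN-before tumor, 0.0405 in the old tumor and 0.0339 in the young tumor. Whether C3ar1 per microglial RNA was higher or lower in the young tumor thus depended on the marker.

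C3ar1 and the C1q chains were close to absent from the GICs. C3ar1 was at 2 fragments in each GIC library, between 0.0379 and 0.0496 FPKM. C1qa was at 0 fragments in the NMN-before and old GICs and at 1 fragment in the young GICs. A count of 0 allows up to 0.338 FPKM of C1qa in the NMN-before GICs and 0.346 FPKM in the old GICs, taking 3 counts as the limit. C1qb was at 3 fragments in the NMN-before GICs, 2 in the old GICs and 0 in the young GICs, and C1qc at 3, 2 and 1. No ratio was taken between such counts. The 12 microglia markers summed to 31.6 FPKM in the NMN-before GICs, 22.6 FPKM in the old GICs and 27.6 FPKM in the young GICs. Of these, 2 reached 1 FPKM in a GIC library, among them Sall1, and Aif1, Siglech, Tyrobp, Cx3cr1, Gpr34, P2ry12 and Fcrls were each at 0 in at least 1 of the 3. Sall1 made most of each sum, at 23.2 FPKM in the NMN-before, 14.5 FPKM in the old and 16.8 FPKM in the young GICs. The sums are therefore not a measure of microglia in the cultures.

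Counted together, 7 of the 9 genes were higher and 2 lower in the old than in the young tumor, beside 48.3% of 14335 measured rows higher and 51.5% lower. The 7 include C1ra, at a log2 difference of 0.01, and the C1q chains, which lie side by side. The median over the 9 was 0.44 on the log2 scale, beside -0.01 over all rows, whose quartiles were -0.18 and 0.18. None of the 9 passed 2-fold, beside 2.6% of all rows. In the NMN-before tumor 1 was higher and 8 lower than in the old tumor, beside 51.5% of rows higher and 48.2% lower, with a median of -0.17 beside 0.01 over all rows. None of the 9 passed 2-fold, beside 3.11% of all rows. Of the 8, C1qb, C1ra, C1s1 and C3ar1 had counting intervals that include 1, as did Serping1, the gene that was higher. Set against the young tumor, the NMN-before tumor had 5 higher and 4 lower, beside 48.8% of rows higher and 50.9% lower, with a median of 0.22 beside -0.01, and none passed 2-fold, beside 3.77% of all rows. The first 2 of these comparisons both use the old tumor, so a high value there enters them with opposite signs.

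**Figure D5:**
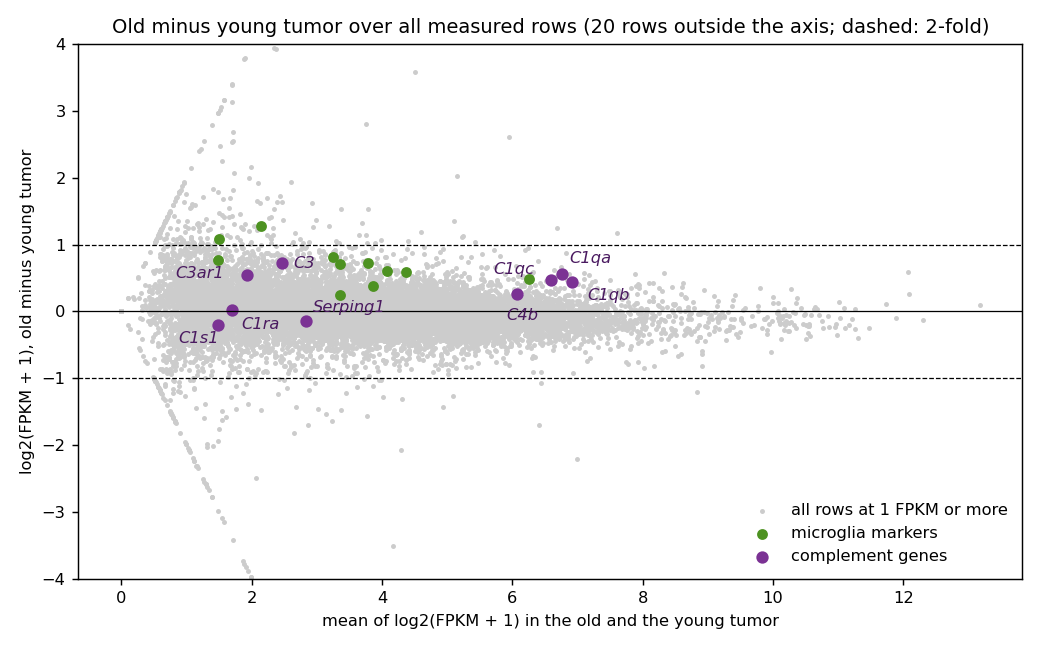
Difference in log2(FPKM + 1), old minus young tumor (y axis), against the mean of both (x axis), for all measured rows (grey), 11 of the 12 microglia markers (green) and the 9 complement genes (purple, named), with dashed lines at 2-fold; 20 rows lie outside the y axis. The complement genes lie between -0.20 for C1s1 and 0.73 for C3, all within 2-fold.

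The genes nearest in pattern to each member at 5 FPKM or more were found over the 3 tumors, by the distance between log2(FPKM + 1) values centred on their mean, among 9988 rows. With 3 libraries a pattern has few degrees of freedom, so many rows lie near any gene, and nothing follows about shared function. Nearest to C1qa were Sypl, Abcg1, 2610005L07Rik, Ahi1 and Adcy5, with 63 rows within a distance of 0.1. Nearest to C1qb were Lcp1, a leukocyte plastin, B4galnt1, Hist3h2ba, Tspan7 and Slc8a3, with 152 rows within 0.1, and nearest to C1qc were Slc25a36, Zfp839, Smarca2, Cdkn1b and Pnmal2, with 124. C1qa and C1qb were 0.09 apart, C1qb and C1qc 0.118 and C1qa and C1qc 0.158. Nearest to C4b were Pnpla6, Mterf3, Cxcl9, Rsph9 and Sat1, with 135 rows within 0.1. C3 had the fewest neighbors, 20 rows within 0.1, led by Lag3, Reln, Oprl1, Fzd7 and Glrx, and Serping1 the most, 1366 rows, led by Ptk2, Rnf19b, Phkg2, Nt5c2 and Gmeb2.

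Another 48 complement genes were looked up by name and fell on 47 rows, since C2 and Cfb share a row. In the tumors 20 of these rows were measured, 3 of them shared with other genes. Between the old and the young tumor 17 were higher and 3 lower (median log2 difference 0.17), beside 48.3% of all measured rows higher. In the NMN-before tumor 9 were higher and 11 lower than in the old tumor (median -0.11), beside 51.5% of all rows higher, and 16 were higher and 4 lower than in the young tumor (median 0.22), beside 48.8%. These counts include the rows of C5ar2 and Cd59a, measured only through the old tumor. They also include Csmd1 and Csmd2, measured only through the NMN-before tumor. Past 2-fold was 1 row of the 20 in each comparison, beside 3.11% of all rows between the NMN-before and old tumors, 3.77% between the NMN-before and young tumors and 2.6% between the old and young tumors. Between the old and young tumor and between the NMN-before and old tumor it was the row of C5ar2, a second receptor of C5a, which also names the small nuclear RNA gene Gm26473. That row was at 0.330 FPKM in the NMN-before tumor, 8.63 FPKM in the old tumor and 0.102 FPKM in the young tumor. It was measured only through the old tumor, where it is high, and the share of each gene cannot be told apart.

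Between the NMN-before and the young tumor the row past 2-fold was that of Itgam, the alpha chain of complement receptor CR3, which also names RP23-144N15.3. It was at 5.95 FPKM in the NMN-before tumor, 5.25 FPKM in the old tumor and 2.13 FPKM in the young tumor. Itgb2, the beta chain of the same receptor, was at 7.46 FPKM in the NMN-before tumor, 9.02 FPKM in the old tumor and 5.32 FPKM in the young tumor. Both chains were thus lowest in the young tumor, with an old over young ratio for Itgb2 of 1.70 (1.42 to 2.02). Itgax, the alpha chain of receptor CR4, was at 4.9995 FPKM in the NMN-before tumor, 10.1 FPKM in the old tumor and 7.06 FPKM in the young tumor, an NMN-before over old ratio of 0.495 (0.430 to 0.570). C5ar1, the main receptor of C5a, was at 2.99 FPKM in the NMN-before tumor, 1.55 FPKM in the old tumor and 1.52 FPKM in the young tumor. It was high in the NMN-before tumor alone, with a ratio over the old tumor of 1.93 (1.35 to 2.81).

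Among activators, the row shared by C2, the partner of C4, and Cfb, factor B, was at 6.79 FPKM in the NMN-before tumor, 11.0 FPKM in the old tumor and 9.84 FPKM in the young tumor, an order like that of C4b. Masp1, a protease of the lectin pathway, was at 5.20 FPKM in the NMN-before tumor, 6.21 FPKM in the old tumor and 4.71 FPKM in the young tumor. Cfp, properdin, was level, at 3.54 FPKM in the NMN-before tumor, 3.93 FPKM in the old tumor and 3.52 FPKM in the young tumor. Colec12, a scavenger collectin, was highest in the NMN-before tumor, at 2.05 FPKM against 1.42 FPKM in the old and 1.25 FPKM in the young tumor.

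Among regulators, Clu, clusterin, was the most abundant, at 205 FPKM in the NMN-before tumor, 254 FPKM in the old tumor and 198 FPKM in the young tumor. Csmd1 and Csmd2, membrane inhibitors made by neurons, were at 1.12 and 1.17 FPKM in the NMN-before tumor, 0.413 and 0.486 FPKM in the old tumor and 0.356 and 0.205 FPKM in the young tumor. Both reached 1 FPKM, and so were measured, only through the NMN-before tumor. Csmd3, the third member of that family, was at 1.95 FPKM in the NMN-before tumor, 2.54 FPKM in the old tumor and 2.48 FPKM in the young tumor, with an NMN-before over old ratio of 0.767 (0.668 to 0.882), and so was lowest where the other two were highest. Neuron markers, 8 of 8 measured with none at 0, summed to 457 FPKM in the NMN-before tumor, 202 FPKM in the old tumor and 165 FPKM in the young tumor; their part in the values of the Csmd genes was not tested. Vtn, Cr1l, Susd4, Cd46, Cd59a and Cd93 were the other measured rows, with log2 differences from -0.33 to 0.73. The terminal components were low: Hc, C6, C7, C8a, C8b, C8g and C9 stayed below 1 FPKM in every tumor, and C6, C8a, C8b and C9 were listed at 0 in all 3.

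In the GICs 9 of the 47 rows were measured: Masp1, Colec11, the C2 and Cfb row, Cfp, Clu, Cd46, Cr1l, Csmd3 and Susd4. Clu was at 18.0 FPKM in the NMN-before GICs, 31.8 FPKM in the old GICs and 46.9 FPKM in the young GICs, lowest in the NMN-before culture. Its NMN-before minus young log2 difference of -1.34 was the only one of the 9 past 2-fold in any GIC comparison. The C2 and Cfb row was at 1.65 FPKM in the NMN-before GICs, 2.71 FPKM in the old GICs and 2.499 FPKM in the young GICs. Masp1 was at 0.509 FPKM in the NMN-before GICs, 1.19 FPKM in the old GICs and 0.906 FPKM in the young GICs, with an NMN-before over old ratio of 0.429 (0.261 to 0.693). It was measured only through the old GICs, where it is high. Masp1 and the C2 and Cfb row were thus lowest in the NMN-before GICs, as C1ra and C1s1 were, whereas C4b was not. Cr1l, a membrane inhibitor of C3 cleavage in mice, was the most even, at 26.0 FPKM in the NMN-before GICs, 29.6 FPKM in the old GICs and 29.6 FPKM in the young GICs.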

How the data were processed

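RNA was extracted with TRIzol, depleted of ribosomal RNA and made into stranded paired-end libraries, per the labels' protocols. Trim Galore 0.6.2, STAR 2.5.4b, Cufflinks 2.2.1, Cuffdiff and the GRCm38 build are named in the submitters' processing notes. The authors deposited FPKM values in 2 tables of 3 libraries each, after 2 empty lines in each. Annotation, normalization mode and use of strand when counting are not given in these sources, so reads of overlapping genes may not have been separated. Coordinates are from GENCODE M21.

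From the deposited FPKM values, log2(FPKM + 1) differences were computed with pandas 2.3.3 over rows at 1 FPKM or more in at least 1 library of the table. No test between groups was possible with 1 library per group. The effective depth was found from low values among 2583 genes with 1 transcript. Each library gave 401 to 510 such values, of which 99.8% to 100.0% were whole fragments within 0.05. The depth was chosen to bring these values near whole fragments, so that share is not an independent check. Ratio intervals are exact conditional 95% intervals (scipy 1.17.1). Fragments of genes with several transcripts are approximate. The scripts were checked on simulated data. The members, lists and comparisons were chosen with earlier results of these data known. Named were all 9 members, listed complement genes at 1 FPKM or more, and the 5 rows nearest in pattern to each member at 5 FPKM or more. Alternatives changed the pseudocount, filter, scaling and row classes. The values of 2 looked-up genes are not reported here.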

Additional observations from a re-analysis of the deposited data

Results flagged for a closer look

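For C4b and C3, the libraries of tumors and of GICs moved in opposite directions under the same contrast. These differences rest on 1 library per group and were not tested. C4b, NMN-before minus old, had a log2 difference of -0.55 in tumors and 1.36 in GICs, so that tumors minus GICs was -1.91. C3, NMN-before minus old, had -0.50 in tumors and 0.39 in GICs, a gap of -0.89. C4b, old minus young, had 0.26 in tumors and -1.26 in GICs, a gap of 1.52. With C4a added, C4b had -0.53 in tumors and 0.97 in GICs for NMN-before minus old, and 0.25 in tumors and -0.92 in GICs for old minus young, still opposite in sign. C3, old minus young, had 0.73 in tumors and -0.52 in GICs, a gap of 1.25. The old GIC library enters all 4 values, at 51 fragments for C4b and 15 for C3, and so does the old tumor. C3 stayed below 1 FPKM in every GIC library and so was not measured there. At such low values the added 1 understates the change, so the sizes of the tumor and GIC differences are not on a like scale.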

How the results depend on the processing

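None of the 9 genes passed 2-fold between tumors under any of the 6 settings of pseudocount, filter and scaling, and their tumor differences kept their signs, except Serping1 between the NMN-before and young tumors, which stayed between -0.02 and 0.00. In GICs, members past 2-fold numbered 1 between NMN-before and old (2 with a pseudocount of 0.1 or 0.5, 3 after rescaling to TPM, 0 with a 5 FPKM filter, 0 with C4b and C4a summed), 0 between NMN-before and young (2 with 0.1, 1 with 0.5, 1 in TPM) and 1 between old and young (2 with 0.1, 0 with the filter, 0 with the sum). C4b, at 1.36 between NMN-before and old GICs, ranged from 0.97 (with C4a summed) to 1.94, and C1ra, at -0.89, ranged to -1.82. Without C1ra, C1s1 and C4b, which have near copies (a choice made after seeing the data, as were the sum with C4a and the alternatives for marker lists), the tumor medians were -0.11, 0.29 and 0.51 for NMN-before against old, NMN-before against young and old against young. No median over members could be had in GICs with the 5 FPKM filter.

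Of the other complement rows, those past 2-fold in tumors numbered 1 in each comparison. With rows naming 1 gene they were 0. With a pseudocount of 0.1 they were 4 for NMN-before against old, 4 for NMN-before against young and 3 for old against young. With 0.5, and in TPM, they were 2 for NMN-before against young and 3 for old against young. In GICs they were 0 for NMN-before against old (1 with 0.1), 1 for NMN-before against young (2 with 0.1, 0.5 or TPM) and 0 for old against young (1 with 0.1, 0.5 or TPM).

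Over all rows, the percentages past 2-fold (3.11, 3.77 and 2.6 in tumors and 5.57, 6.62 and 2.8 in GICs, for NMN-before against old, NMN-before against young, and old against young) became 6.64, 8.13, 5.89, 11.05, 12.05 and 6.82 with 0.1, and 0.95, 1.15, 0.79, 1.52, 1.81 and 0.76 with no filter. Between NMN-before and young GICs 54.1% of the rows past 2-fold were higher, and 42.5% in TPM. No scaling moved the median of all rows by more than 0.073.

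No paired analysis was possible because, within each table, each group is 1 library and the labels carry no replicate numbers, and no replicate was left out because there are none. Depth limits the GIC values of C1ra, C1s1, C3 and Serping1, which rest on 5 to 59 fragments.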
